A study of Oryctolagus cuniculus with 16 samples.

Results

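*ENPP2*, *DPEP2* and *PLA2G7* each encode an enzyme that makes or clears a lipid mediator, and they are 3 of the 13788 gene symbols in a count matrix from the wall of the rabbit basilar artery. They were chosen by name, after their lower levels in ligated rabbits were known, so every value that sets ligated against sham rabbits is given here as a description with no test. Intima, the thin layer that holds the endothelial cells, and media, the smooth muscle layer, had been cut by laser from frozen sections of the straight basilar artery (BA) and of its bifurcation, the basilar terminus (BT), and about 10 sections were combined in each sample. All 4 animals were female New Zealand white rabbits. Rabbits 3 and 4 were sham-operated and had normal flow, and rabbits 5 and 6 had both common carotid arteries ligated, which raises flow through the BA, with tissue taken 24 h after surgery. Each rabbit gave 4 libraries, so the 16 libraries hold 2 sham and 2 ligated rabbits for each layer and location. The ages of the animals are not given in the sources used here.

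*ENPP2* encodes autotaxin, a secreted lysophospholipase D that produces most extracellular lysophosphatidic acid (LPA) from lysophosphatidylcholine. LPA acts on G-protein-coupled receptors of the LPAR family on endothelial and smooth muscle cells, and lipid phosphate phosphatases such as *PLPP1* at the cell surface inactivate it. *DPEP2* encodes a membrane-bound dipeptidase of the family that converts leukotriene D4 to leukotriene E4, downstream of 5-lipoxygenase and leukotriene C4 synthase, and cysteinyl leukotrienes act on *CYSLTR1* and *CYSLTR2*. *PLA2G7* encodes the secreted form of platelet-activating factor (PAF) acetylhydrolase, also called lipoprotein-associated phospholipase A2, which inactivates PAF. Macrophages are a well-known source of this enzyme.

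The intimal libraries totalled 5211886 to 17686105 counts each and the medial ones 2154863 to 11219236. Levels are given as CPM, a count scaled to a common library size, with the trimmed mean of M values (TMM) over all 16 libraries as the scaling. They are compared between libraries for 1 gene, never between genes, because they are not divided by transcript length. The tissue labels were checked on defining markers. *PECAM1*, an endothelial adhesion molecule, ranged from 179 to 812 CPM in the intima and from 2.92 to 148 CPM in the media, whereas the summed smooth muscle markers ranged from 12894 to 86504 CPM in the intima and from 87760 to 144504 CPM in the media. The intimal libraries therefore also carried smooth muscle transcripts.

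*ENPP2* was well counted in all 16 libraries, and its level was lower in every ligated library than in every sham library of the same tissue. In the BA intima it stood at 359 and 348 CPM in sham rabbits 3 and 4, and at 34.1 and 51.7 CPM in ligated rabbits 5 and 6. The sham libraries differed little from each other, and the ligated group mean of 42.9 ± 12.4 CPM (SD, n = 2) lay 8.25-fold below the sham mean of 354 ± 7.63 CPM. In the BT intima the sham libraries held 214 and 401 CPM and the ligated libraries 47.0 and 62.8 CPM. The sham spread was wider there, with rabbit 4 above rabbit 3, and the means of 307 ± 132 and 54.9 ± 11.2 CPM differed 5.60-fold. In the BA media sham rabbits had 150 and 178 CPM and ligated rabbits 24.3 and 23.1 CPM, a 6.93-fold difference of means. In the BT media the values were 188 and 381 CPM in sham and 36.8 and 52.4 CPM in ligated rabbits, a 6.38-fold difference. The count behind each ligated value lay between 46 in the BA media of rabbit 5 and 763 in the BT intima of rabbit 6, so all were measured well above the limit of 3 counts that a count of 0 allows.

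*DPEP2* was more abundant in the media than in the intima, and its ligated means lay 13.1-fold to 37.8-fold below the sham means. In the medial layer of the BA its level was 163 and 194 CPM in sham rabbits and 3.69 and 5.77 CPM in ligated rabbits. The group means of 179 ± 22.0 and 4.73 ± 1.47 CPM (SD, n = 2) were 37.8-fold apart, and the groups were far from overlapping. In the BT media it was 184 and 130 CPM against 8.10 and 10.8 CPM, a 16.7-fold difference of means. In the intima the sham levels were lower to begin with, at 61.0 and 63.9 CPM (BA) and 28.4 and 54.5 CPM (BT). The ligated intimal libraries held 3.19 and 0.856 CPM at the BA and 3.02 and 3.29 CPM at the BT, so the means differed 30.8-fold and 13.1-fold. Few reads carried the lowest of these values: 5 counts in the BA intima of rabbit 6 and 7 counts in the BA media of rabbit 5. Computed from the pooled counts, the BA intima ratio was 27.1 with an exact 95% interval of 19.4 to 39.0, and the BA media ratio was 34.4 (23.9 to 51.4). These intervals cover counting error only: they pool the reads of 2 rabbits and leave out the spread between them. The reads also carry no molecular identifiers, so repeated reads of 1 molecule are counted as separate.

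*PLA2G7* differed from the other two in that its pattern was not the same in every tissue. BA media gave 76.7 and 72.5 CPM in sham and 16.9 and 3.67 CPM in ligated rabbits, a 7.26-fold difference between means of 74.6 ± 3.01 and 10.3 ± 9.34 CPM (SD, n = 2). In the BT intima it was 59.3 and 22.7 CPM in sham rabbits, whereas the ligated libraries held 0 and 3 counts. At equal depth the pooled sham count there was 378 times the pooled ligated count, with an exact 95% interval of 129 to 1834. That interval too leaves out the spread between rabbits, and rabbit 3 gave 877 of the 1032 sham counts. In the BT media the sham values of 41.8 and 37.4 CPM and the ligated values of 12.5 and 38.4 CPM overlapped, because rabbit 6 lay between the sham rabbits. In the BA intima the levels were 15.1 and 1.49 CPM in sham and 0 and 1.37 CPM in ligated rabbits. Rabbit 3 supplied 91.0% of the sham CPM in that tissue, and the lower sham library exceeded the higher ligated library only 1.09-fold.

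**Figure D1:**
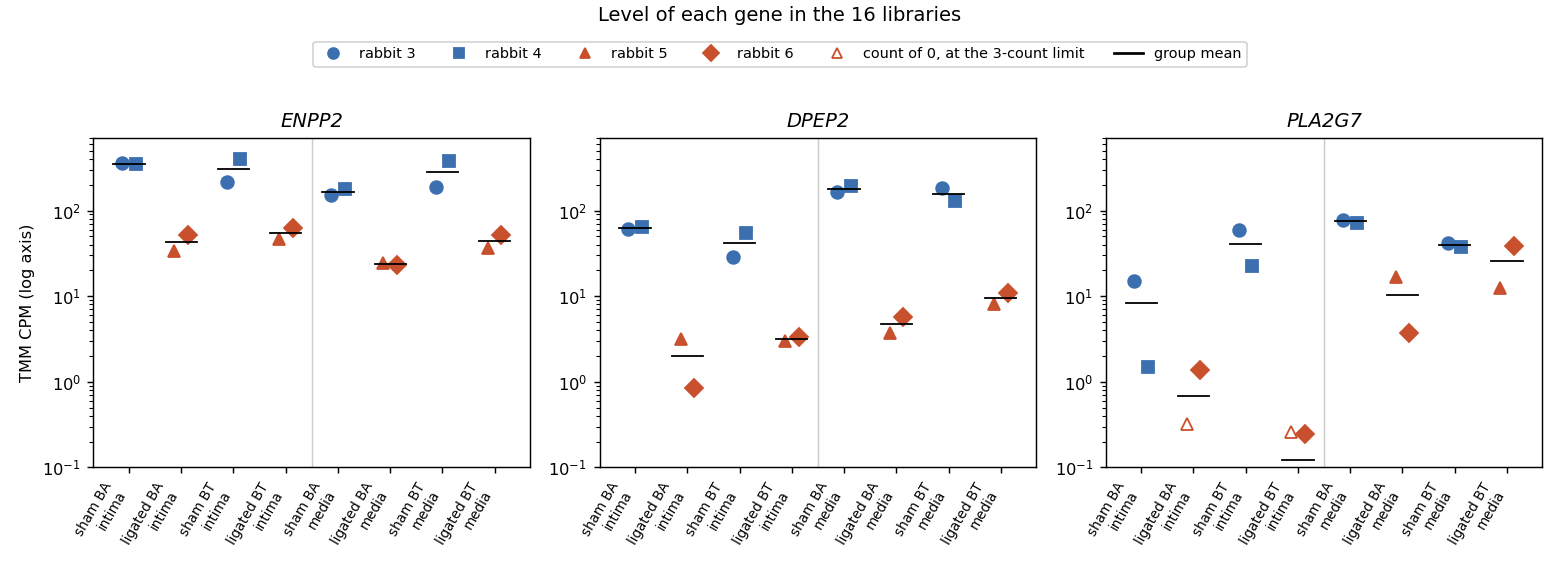
TMM CPM (log axis) of *ENPP2*, *DPEP2* and *PLA2G7* in each of the 16 libraries, grouped by flow, location and layer; blue marks are sham rabbits, orange marks ligated rabbits, lines are group means, and open marks are counts of 0 drawn at the 3-count limit. Both ligated libraries lie below both sham libraries in every panel and tissue except for *PLA2G7* in the BT media, where rabbit 6 at 38.4 CPM lies between the sham values of 37.4 and 41.8 CPM.

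Counted over the 3 genes and 4 tissues, both ligated libraries lay below both sham libraries in 11 of 12 cases. It held for all 3 genes in the intima of the BA, beside 20.1% of the genes tested there, and for all 3 in that of the BT beside 25.5%. It also held for all 3 in the media of the BA beside 26% and for 2 of 3 in the media of the BT beside 23%. These counts only restate the choice of the genes and were read no further. The fitted log2 fold changes of edgeR were -3.05 ± 0.48 (SE), -2.49 ± 0.48, -2.77 ± 0.41 and -2.66 ± 0.43 for *ENPP2* in the intima (BA, then BT) and the media (BA, then BT). In the same order they were -4.90 ± 0.85, -3.71 ± 0.73, -5.17 ± 0.50 and -4.03 ± 0.47 for *DPEP2*. For *PLA2G7* they were -3.66 ± 2.12, -8.24 ± 1.39, -2.89 ± 0.74 and -0.62 ± 0.63. Each intimal value of *PLA2G7* rested on few ligated counts, 8 in the BA and 3 in the BT, all from rabbit 6, because rabbit 5 was at 0. The errors of *PLA2G7* in the intima were the widest of the 12. Without rabbit 3 the *PLA2G7* value of the BA intima became -1.14, without rabbit 6 it became -9.82, and without rabbit 6 the value of the BT media became -1.67. The ligated BA intima left without rabbit 6 had 0 counts, so the size of -9.82 was set by the prior count. Without rabbit 5 the *DPEP2* value of the BA intima became -6.18 and the *PLA2G7* value of the BA media -4.30.

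**Figure D2:**
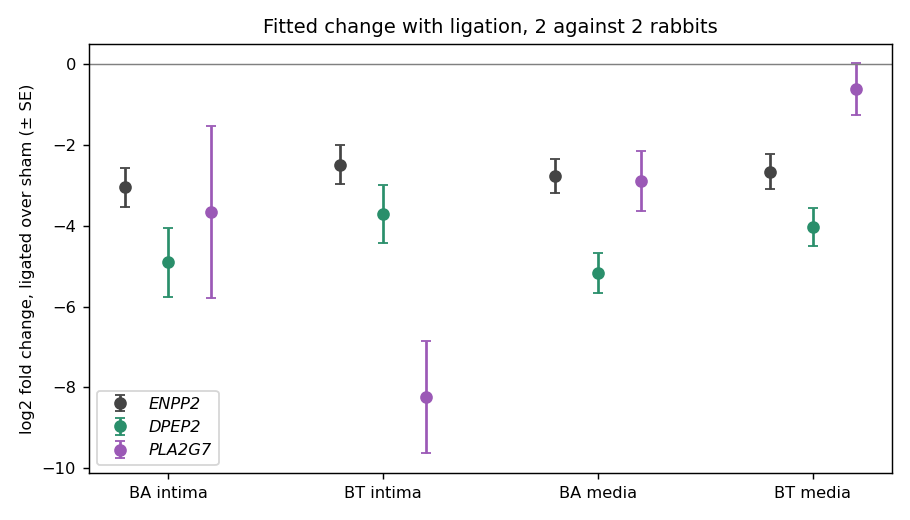
Fitted log2 fold change of ligated over sham rabbits, with its standard error, for the 3 genes in the 4 tissues (2 against 2 rabbits, edgeR). *ENPP2* lies between -3.05 and -2.49 in the 4 tissues, *DPEP2* between -5.17 and -3.71, and *PLA2G7* ranges from -8.24 in the BT intima to -0.62 in the BT media.

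Ordered by mean level, *ENPP2* was highest in the sham BA intima (354 CPM), followed by the sham BT intima (307), sham BT media (284), sham BA media (164), ligated BT intima (54.9), ligated BT media (44.6), ligated BA intima (42.9) and ligated BA media (23.7). The ranges of the 3 highest groups overlapped from each to the next, as did those of the ligated BT intima, BT media and BA intima, whereas the steps down to the sham BA media, to the ligated groups and to the ligated BA media were clear of overlap. For *DPEP2* the order was sham BA media (179), sham BT media (157), sham BA intima (62.4), sham BT intima (41.4), ligated BT media (9.43), ligated BA media (4.73), ligated BT intima (3.16) and ligated BA intima (2.03). Only the ranges of the first pair and of the last pair overlapped. Media therefore stood above intima within sham and within ligated rabbits. *PLA2G7* did not sort by flow: its order was sham BA media (74.6), sham BT intima (41.0), sham BT media (39.6), ligated BT media (25.5), ligated BA media (10.3), sham BA intima (8.30), ligated BA intima (0.684) and ligated BT intima (0.124). From the sham BT intima to the sham BA intima each range overlapped the next.

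In bulk tissue, fewer cells of a type and less RNA per cell cannot be told apart, so marker lists for other cell types were summed in each library. The 10 macrophage markers in the matrix summed to 1097 and 138 CPM in the sham and 185 and 66.8 CPM in the ligated BT intima, and to 506 and 77.1 CPM in the sham and 203 and 105 CPM in the ligated BA intima. Rabbit 3 was the highest of the 4 intimal libraries at each location, and it also had the highest intimal *PLA2G7*. In the BT media the macrophage sum was 92.1 and 67.3 CPM in sham and 108 and 173 CPM in ligated rabbits. The sum for the BA media was 340 and 255 CPM in sham and 171 and 74.7 CPM in ligated rabbits. The sum hides unlike members. In the intima *TYROBP* had medians of 88.7 CPM in sham and 0.0412 CPM in ligated rabbits, *AIF1* 78.0 and 0.830, *C1QC* 47.7 and 0.846, *C1QA* 20.2 and 0.599, and *MRC1* 22.7 and 0.0412 CPM. The highest ligated intimal library still held 43.0 CPM of *AIF1* and 36.0 CPM of *TYROBP*. The lowest sham intimal values were 0 CPM for *AIF1* and 4.26 CPM for *TYROBP*, and the sham and ligated ranges overlapped for each of these genes. *CD14* and *LYVE1* had higher medians in the ligated intima, at 57.9 and 86.0 CPM and at 0.732 and 5.28 CPM. Only 2 of the 10 markers had a count in the ligated BT intima of rabbit 5. *C1QA* was at 0 in 1 sham and 2 ligated intimal libraries of 4 each, and *C1QB*, at most 1.08 CPM in any library, in 1 and 4.

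The 12 leptomeningeal and fibroblast markers were also summed, although most of the sum was matrix Gla protein (*MGP*), with medians of 54196 CPM in the sham and 36512 CPM in the ligated media. The sum was 30342 and 30232 CPM in the sham and 4151 and 11545 CPM in the ligated BT intima. It was 86786 and 52709 against 36351 and 24383 CPM in the BA media and 83128 and 62343 against 48357 and 60692 CPM in the BT media. In the BA intima it was 42866 and 21687 CPM in sham and 23181 and 17627 CPM in ligated rabbits, and the groups overlapped. Osteoglycin (*OGN*), a matrix proteoglycan on that list, was singled out for its difference and ranged from 2884 to 12599 CPM in the sham and 189 to 1573 CPM in the ligated intima, and from 6878 to 11800 against 1449 to 2282 CPM in the media. Other members went the other way: *ALDH1A2* had medians of 41.9 and 92.2 CPM in the sham and ligated intima and 87.4 and 329 CPM in the media, and *DPT* had 16.4 and 22.9 CPM in the media. Of the 12 markers, 8 and 12 had a fitted fold change below 0 in the intima of the BA and BT, and 10 and 9 in the media. edgeR called 3 lower and 1 higher in the BA media and 1 lower in the BT media, where 0.805% and 2.34% of all genes passed. The part of macrophage or leptomeningeal RNA in the levels of the 3 genes was not tested. The choroid plexus, which is rich in *ENPP2*, was represented mainly by *TTR*. In the media *TTR* ranged from 0.581 to 1672 CPM in sham and from 0 to 42.2 CPM in ligated rabbits. In the intima it ranged from 0 to 100 CPM in sham rabbits and was at 0 in all 4 ligated libraries. The library with 1672 CPM of *TTR*, the BA media of rabbit 4, had 178 CPM of *ENPP2*, and the BA media of rabbit 3 had 150 CPM. The part of choroid plexus RNA in the level of *ENPP2* was not tested. Oligodendrocyte markers summed to at most 46.8 CPM and neuron and astrocyte markers to at most 31.8 CPM in any library.

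**Figure D3:**
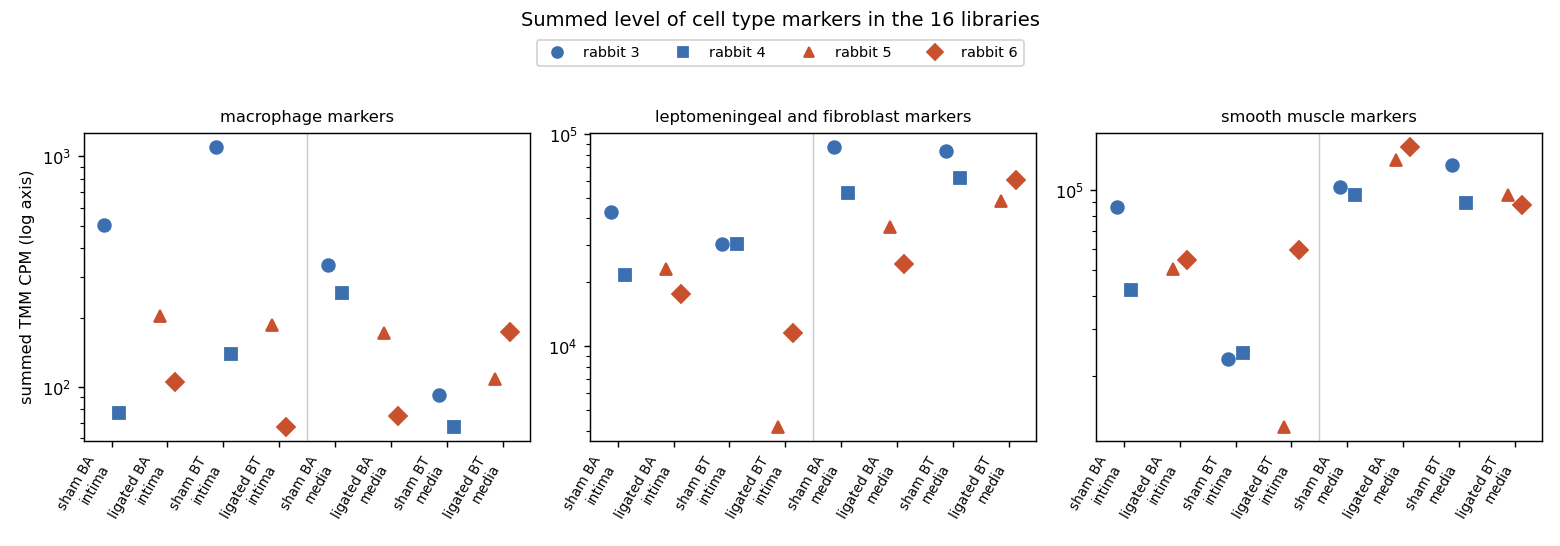
Summed TMM CPM (log axis) of macrophage, leptomeningeal and fibroblast, and smooth muscle markers in each library, with the groups and symbols of the plot of the 3 genes. The macrophage sum peaks in rabbit 3 (1097 CPM in the sham BT intima), and the leptomeningeal sum is lower in both ligated libraries than in both sham libraries in every tissue except the BA intima.

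The layers were compared within each rabbit, a contrast that did not enter the choice of the genes. In all 4 rabbits and at both locations *ENPP2* was higher in the intima and *DPEP2* higher in the media. In the BA the *ENPP2* level of the intima was 2.39, 1.96, 1.40 and 2.24 times that of the media in rabbits 3, 4, 5 and 6. In the BT the ratios were 1.14, 1.05, 1.28 and 1.20, so the layers were nearly level. edgeR with rabbit as a block gave log2 differences of 0.93 ± 0.24 (SE; adjusted p = 0.173) in the BA and 0.22 ± 0.21 (adjusted p = 0.709) in the BT, and neither passed the threshold of 0.05.

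*DPEP2* was 2.67, 3.04, 1.16 and 6.74 times higher in the media than in the intima of the BA in rabbits 3, 4, 5 and 6. In the BT the corresponding ratios were 6.48, 2.39, 2.68 and 3.26. The edgeR log2 differences of intima over media were -1.51 ± 0.41 (SE; adjusted p = 0.182) in the BA and -1.78 ± 0.36 (adjusted p = 0.0557) in the BT. The BT value lay just outside the threshold. The smooth muscle markers were also higher in the media by the fitted fold change, 8 of 8 at each location. So was the leptomeningeal and fibroblast sum, and the part of either in the difference was not tested.

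*PLA2G7* was higher in the media than in the intima of the BA in all 4 rabbits, 5.08-fold and 48.5-fold in sham rabbits 3 and 4, at least 52.8-fold in rabbit 5, whose intima was at 0 counts, and 2.68-fold in rabbit 6. In the BT rabbit 3 went the other way, with 1.42 times more in the intima. Rabbit 4 had 1.65-fold and rabbit 5 at least 48.1-fold more in the media, and the ratio in rabbit 6 was 156 (exact 95% interval 52.8 to 759) on 3 intimal counts. The log2 differences were -4.02 ± 1.10 (SE; adjusted p = 0.183) in the BA and -3.17 ± 1.80 (adjusted p = 0.489) in the BT by edgeR.

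None of the 3 genes was called by edgeR between layers, although all 3 had an unadjusted p below 0.05 in the BA (12.3% of genes) and 1 of 3 in the BT (14.4%). Over all genes tested edgeR called 0.455% in the BA and 1.95% in the BT. DESeq2, which called more genes in general (7.4% in the BA and 11.1% in the BT), called 3 of 3 and 2 of 3. A shared direction in 4 of 4 rabbits was found for 11.9% (intima higher) and 10.5% (intima lower) of genes in the BA, and for 13.9% and 11.9% in the BT. An exact sign-flip test over 4 rabbits cannot give a two-sided p under 0.125, and it gave 0.125 for each gene and location except *PLA2G7* in the BT, for which the exact test gave p = 0.25. The labels give 1 sample per rabbit, layer and location. These p-values therefore set the layer difference within rabbits against its spread over the 4 animals, sham and ligated together.

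The locations were compared in the same way. Medial *ENPP2* was higher at the BT in all 4 rabbits, by 1.25-fold, 2.14-fold, 1.52-fold and 2.27-fold in rabbits 3, 4, 5 and 6. The edgeR log2 difference was 0.80 ± 0.26 (SE; adjusted p = 0.739), while 7.29% of genes were higher and 6.68% lower at the BT in 4 of 4 rabbits. In the intima *ENPP2* gave 0.05 ± 0.25 (edgeR adjusted p = 1.00), with rabbit 3 lower at the BT and the other 3 rabbits higher, where 5.75% of genes were higher and 6.13% lower in 4 of 4. *DPEP2* differed by 0.01 ± 0.43 in the intima (adjusted p = 1.00) and 0.28 ± 0.33 in the media (adjusted p = 0.997) by edgeR. Its direction in the media divided by flow in part: both ligated rabbits were higher at the BT, 2.19-fold and 1.86-fold, whereas the sham ratios were 1.13 and 0.671.

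In the sham intima *PLA2G7* was 3.93 times as high at the BT as at the BA in rabbit 3 and 15.2 times in rabbit 4. In ligated rabbits this could not be followed, since rabbit 5 had 0 counts at both sites and rabbit 6 had 3 at the BT and 8 in the BA. In the media the sham rabbits were lower at the BT, with BA levels 1.83-fold and 1.94-fold higher, as was ligated rabbit 5, with a BA level 1.35-fold higher, whereas rabbit 6 was 10.5-fold higher at the BT. The edgeR differences over the 4 rabbits were 1.53 ± 1.40 (SE; adjusted p = 1.00) in the intima and 0.04 ± 0.62 (adjusted p = 0.998) in the media. Between locations edgeR called none of the 3 genes in either layer, with 0 of 3 at an unadjusted p below 0.05 in the intima (3.84% of genes) and 1 of 3 in the media (5.29%), and DESeq2 also called 0 in either layer. Over all genes edgeR called 0.0109% in the intima and 0.0226% in the media, and DESeq2 0.394% and 0.633%.

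**Figure D4:**
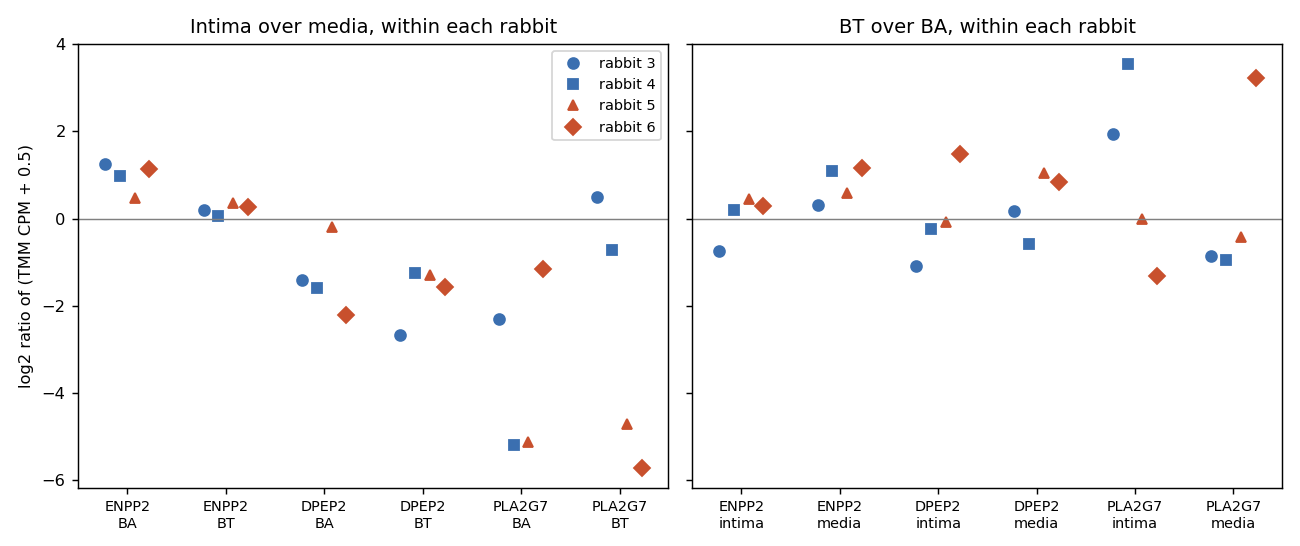
Within-rabbit log2 ratios of (TMM CPM + 0.5) for the 3 genes, intima over media on the left and BT over BA on the right, with 1 mark for each rabbit (blue sham, orange ligated). *ENPP2* lies above and *DPEP2* below 0 in all 4 rabbits at both locations on the left, whereas on the right only *ENPP2* in the media keeps 1 direction in all 4 rabbits.

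To place the 3 enzymes among their partners, 64 other genes of the LPA, leukotriene and PAF pathways present in the matrix were followed (26, 23 and 15), of which 58 had a count in any library and 42 or 43 passed the filter in each comparison. In ligated against sham rabbits, edgeR called 0 of 42 in the intima of either location, where 0% of all genes passed. It called 0 of 42 in the media of the BA and 1 of 42 in the media of the BT, where 0.805% and 2.34% of all genes passed. At an unadjusted p below 0.05, the pathway genes counted 5 higher and 2 lower in the intima of the BA (5.93% of all genes passed that limit) and 4 and 4 in that of the BT (11.6%). They counted 5 and 2 in the media of the BA (13.6%) and 5 and 2 in that of the BT (16%). DESeq2 called 2, 5, 2 and 5 of them in that order, beside 1.36%, 6.64%, 5.76% and 6.75% of all genes. The median log2 fold change of the 42 genes was 0.17, 0.01, -0.07 and 0.39, beside -0.10, -0.13, -0.14 and 0.03 for all genes tested.

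The gene called in the BT media was *PLPP1*, a phosphatase that removes LPA. It rose there from 92.7 and 152 CPM in sham to 343 and 410 CPM in ligated rabbits (log2 fold change 1.63 ± 0.35, edgeR adjusted p = 0.0334). The call held under 7 of 11 alternative settings, and it was lost when either ligated rabbit was left out (adjusted p = 0.110 without rabbit 5 and 0.305 without rabbit 6, edgeR). In the BT intima *PLPP1* was 238 and 216 CPM in sham and 1601 and 810 CPM in ligated rabbits, 2.41 ± 0.49 on the log2 scale, which did not pass (edgeR adjusted p = 0.267). The means of the BA media were nearly equal, at 197 ± 1.11 CPM in sham and 194 ± 94.2 CPM in ligated rabbits (SD, n = 2).

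Among the LPA receptors, *LPAR1*, the most widely expressed of the family, was lower in both ligated libraries of 3 tissues without passing the test in any. Both ligated libraries were lower for 26%, 23% and 25.5% of the genes tested in these tissues (BA media, BT media and BT intima). BA media held 131 and 107 CPM in sham and 18.5 and 35.1 CPM in ligated rabbits (log2 -2.11 ± 0.49, edgeR adjusted p = 0.102). In the BT media the values were 32.8 and 54.2 against 6.86 and 9.0 CPM (-2.44 ± 0.66, edgeR adjusted p = 0.0828). The BT intima held 221 and 19.8 CPM in sham and 0 and 1.15 CPM in ligated rabbits (-7.68 ± 1.81, edgeR adjusted p = 0.267), and rabbit 3 again supplied most of the sham level. In the BA intima the groups overlapped, at 84.1 and 13.8 against 45.2 and 2.05 CPM. Across locations *LPAR1* in the media differed by -1.60 ± 0.34 on the log2 scale for BT over BA (edgeR adjusted p = 0.250).

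*LPAR6*, a receptor of the P2Y family, did not share that pattern. In the BA intima it was 33.2 and 128 CPM in sham and 382 and 164 CPM in ligated rabbits, and in the BT media 16.0 and 22.9 against 77.3 and 54.7 CPM. The log2 fold changes of 1.78 ± 0.70 (edgeR adjusted p = 0.802) and 1.76 ± 0.53 (adjusted p = 0.114) did not pass. After ligation the BA media was lower, at 34.9 and 40.1 against 23.2 and 4.19 CPM (-1.46 ± 0.83, edgeR adjusted p = 0.484). *LPAR6* was higher in the intima than in the media of the BT in 4 of 4 rabbits (1.96 ± 0.42, edgeR adjusted p = 0.0620). *LPAR3* and *LPAR4* reached at most 22.1 and 31.3 CPM in any library, *LPAR5* was at 0 in 13 libraries, and *LPAR2* was counted in 1 library only, with 5 counts.

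*CYSLTR1*, the receptor for leukotriene D4, was at 0 counts in all 4 ligated medial libraries. The sham libraries of the BA media held 56.3 and 14.4 CPM, so the sham mean was at least 29.8-fold above the mean limit of 3 counts per ligated library (edgeR adjusted p = 0.0508). In the BT media the sham values of 14.5 and 1.61 CPM gave at least 12.6-fold (edgeR adjusted p = 0.127). Neither passed, and rabbit 3 was the higher sham library in both. Both ligated libraries were lower for 26% and 23% of the genes tested in the BA and BT media. The 4 ligated libraries came from the same ligated rabbits at both locations, so they are not independent. In the intima *CYSLTR1* was at 0 in 1 sham and 1 ligated library at each location. *PTAFR*, the PAF receptor, was counted only in the BT intima of rabbit 3, with 49 counts, the library with the highest macrophage sum. *CYSLTR2* was not analysed here.

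**Figure D5:**
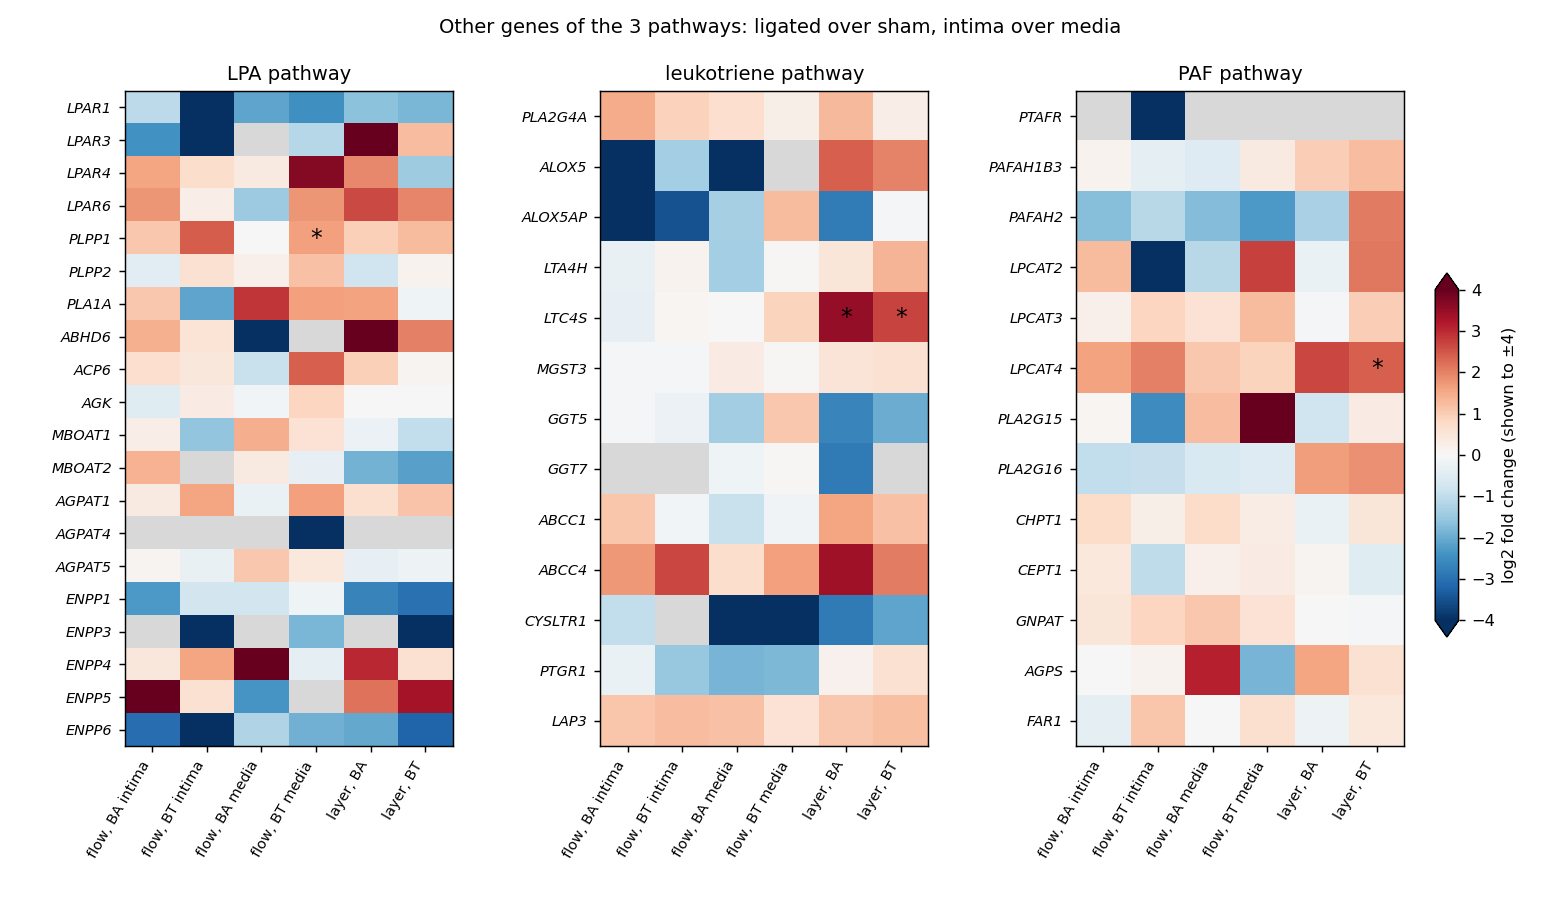
Fitted log2 fold changes (colour, shown to ±4; grey, below the filter) of the other pathway genes for ligated over sham rabbits in 4 tissues and for intima over media at 2 locations, with an asterisk at an edgeR adjusted p below 0.05. Asterisks stand at *PLPP1* in the BT media, at *LTC4S* for both layer comparisons and at *LPCAT4* for the layers of the BT.

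Between layers, edgeR called 1 of 43 pathway genes in the BA and 2 of 43 in the BT, all higher in the intima, beside 0.455% and 1.95% of all genes in either direction. At an unadjusted p below 0.05 there were 10 higher and 2 lower in the BA and 9 and 1 in the BT, beside 12.3% and 14.4% of all genes. *LTC4S*, leukotriene C4 synthase, which acts upstream of the dipeptidase step, was higher in the intima of 4 of 4 rabbits at both sites. It ranged from 19.0 to 126 CPM in the intima and from 1.41 to 10.5 CPM in the media of the BA (log2 3.52 ± 0.45, edgeR adjusted p = 0.0321). In the BT the ranges were 17.6 to 108 and 2.32 to 17.1 CPM (2.70 ± 0.40, edgeR adjusted p = 0.0261). Its layer difference had the opposite sign to that of *DPEP2*.

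*LPCAT4*, a lysophospholipid acyltransferase, was also higher in the intima of 4 of 4 rabbits at the BT, where medians were 91.8 CPM in the intima and 18.2 CPM in the media (log2 2.39 ± 0.38, edgeR adjusted p = 0.0324). In the BA it differed by 2.69 ± 0.51 without passing (edgeR adjusted p = 0.0842). These 3 calls held under 7, 8 and 7 of 13 alternatives for *LTC4S* in the BA, *LTC4S* in the BT and *LPCAT4* in the BT. Leaving out rabbit 4 or rabbit 6 ended each of them (edgeR adjusted p from 0.127 to 0.218), leaving out rabbit 3 ended that of *LTC4S* in the BA (edgeR adjusted p = 0.0601), and leaving out rabbit 5 ended that of *LPCAT4* (0.0900). Between locations edgeR called 0 of 42 pathway genes in the intima and 0 of 43 in the media, beside 0.0109% and 0.0226% of all genes. At an unadjusted p below 0.05 there were 1 and 4, beside 3.84% and 5.29% of all genes. DESeq2 called 1 in each layer, beside 0.394% and 0.633%.

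The genes whose levels followed each enzyme most closely over the 16 libraries were listed as a description, with Pearson's r of log2(CPM + 0.5) among 8701 genes. The libraries share 4 rabbits and 2 flow states, so they are not independent points. For *ENPP2* they were *GLB1L* (r = 0.92), *NR1D2* (0.91), *APP* (0.90), *DDX17* (0.90) and *UPF3A* (0.89). For *DPEP2* they were *RYR2* (0.94), *PGD* (0.93), *FNDC1* (0.93), *PLCE1* (0.93) and *COX7A1* (0.93). For *PLA2G7* they were *TCFL5* (0.93), *BMPR1B* (0.90), *PLXDC1* (0.90), *INMT* (0.90) and *MEOX1* (0.90). Ranked by Spearman's rho instead, 2, 0 and 0 of the 5 stayed among the closest 5, so the order of such lists was not stable. Among the enzymes themselves, *ENPP2* and *DPEP2* had r = 0.81 over the 16 libraries and 0.96 and 0.94 within the 8 intimal and the 8 medial libraries. *PLA2G7* had r = 0.46 with *ENPP2* over the 16, and 0.78 and 0.77 within the intimal and the medial libraries. With *DPEP2* it had 0.72 over the 16, and 0.71 and 0.79 within the layers. The enzymes were chosen after their lower levels in ligated rabbits were known, and each of these sets mixes sham and ligated libraries. The r values between the enzymes therefore in part restate that choice and were read no further.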

How the data were processed

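Libraries were made from laser-cut tissue with the SMART-Seq v4 kit and sequenced as single reads on a NextSeq500. Per the labels and the study's methods, the authors aligned reads with STAR to the rabbit build OryCun2.0 and counted uniquely aligned reads over exons with featureCounts 1.6.2; the files deposited hold these raw counts, 1 line for each gene symbol. The counting is described with a reverse-strand setting. The kit does not mark strand, so that setting leaves out reads of a gene in the other orientation, and reads of a gene and an antisense partner cannot be told apart. A single row with no symbol, holding 13.8% to 18.7% of the counts of a library, was left out.

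The comparisons of ligated with sham rabbits used the study's test, the quasi-likelihood F test of edgeR, here on counts and with a CPM filter in place of the study's RPKM values and RPKM filter. The settings were edgeR 4.0.16 (R 4.3.3), the older form of the test, TMM scaling, genes with a mean above 1 CPM in at least 1 group, and Benjamini-Hochberg adjustment over all genes tested, with a threshold of 0.05. Ligated and sham rabbits were compared separately in each of the 4 tissues. Comparisons of layers and locations, which the study's methods do not list, were added with rabbit as a block, because both samples of a pair came from the same animal. SE is the fold change divided by the square root of F, and DESeq2 1.42.0 was an alternative. Levels are TMM CPM over 16 libraries; ratios used a limit of 3 counts where a count was 0, and exact 95% intervals where counts were low. Scripts were tested on simulated counts.

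The 3 genes and the pathway and marker lists were chosen with earlier results of these data known. Named besides the 3 enzymes were each pathway gene past 0.05 in any comparison, the receptors, the 5 most correlated genes (mean above 1 CPM) and the cell type markers. *OGN* and *TTR* were singled out after their values were seen, and *TYROBP*, *AIF1*, *C1QB*, *C1QC*, *MRC1*, *LYVE1*, *MGP*, *ALDH1A2* and *DPT* likewise. Sequences and coordinates were not used here.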

Additional observations from a re-analysis of the deposited data

Results flagged for a closer look

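The level of *LPAR6* in ligated against sham rabbits went in opposite directions in neighbouring tissues, with no overlap between groups in any of the 3 tissues. Such a lack of overlap is common: 26% of the genes tested in the BA media were lower in both ligated libraries. The share of genes higher in both, which would stand beside the BA intima and the BT media, is not given here. On the scale of log2(mean CPM + 0.5), *LPAR6* was higher by 1.75 in the BA intima and lower in the BA media (-1.42), a gap of 3.17 between the layers. It was higher by 1.74 in the BT media, so that the BA media minus the BT media gave -3.16. The difference between tissues was not tested, and these were the only 2 such cases among the 3 enzymes and the 9 other named pathway genes.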

How the results depend on the processing

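All fold changes of the 3 enzymes in ligated against sham rabbits kept a negative sign under each of the 11 alternatives, which leave out a rabbit or change the scaling, filter, tool or libraries fitted. Without composition normalization the value of *ENPP2* in the BA media was -2.92, and that setting moved the median of all genes by up to 0.24 on the log2 scale between layers. Leaving out 1 rabbit at a time gave, in the intima (BA, BT) and the media (BA, BT), -3.36 to -2.79, -2.86 to -1.99, -2.86 to -2.65 and -3.08 to -2.05 for *ENPP2*. The same gave -6.18 to -4.27, -4.10 to -3.19, -5.58 to -4.91 and -4.28 to -3.76 for *DPEP2*, and -9.82 to -1.14, -11.83 to -7.34, -4.30 to -2.14 and -1.67 to -0.056 for *PLA2G7*. A fit left with 1 rabbit in a group assumes that it varies like the others. The lowest intimal values of *PLA2G7*, -9.82 and -11.83, depend on the prior count, because the ligated intima of rabbit 5 had 0 counts.

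Between layers, DESeq2 passed the threshold in the BA for *ENPP2* (0.95), *DPEP2* (-1.51) and *PLA2G7* (-4.19), and in the BT for *DPEP2* (-1.80) and *PLA2G7* (-3.81). The version 4 form of edgeR passed it for *PLA2G7* in the BA (-3.53) and *DPEP2* in the BT (-1.86), and testing all genes with a count passed it for *DPEP2* in the BT (-1.77). Of the 6 BT over BA differences, 4 changed sign under some alternative, and those of *ENPP2* in the media and *PLA2G7* in the intima did not. Without the rabbit block they were -0.12 for *ENPP2* and -0.52 for *DPEP2* in the intima and -0.15 for *DPEP2* and -0.39 for *PLA2G7* in the media. In sham rabbits only, paired by rabbit, they were -0.26, -0.65, -0.19 and -0.91 in that order. The version 4 form gave -0.41 for *DPEP2* in the intima and -0.047 and -0.20 for *DPEP2* and *PLA2G7* in the media. Leaving out 1 rabbit gave -0.085 to 0.31 for *ENPP2* and -0.47 to 0.43 for *DPEP2* in the intima and -0.77 to 0.48 for *PLA2G7* in the media. *PLA2G7* in the intima could not be fitted in ligated rabbits only. The cause of these changes was not tested.

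The number of other pathway genes called in ligated against sham rabbits (0, 0, 0 and 1 in the same order) became 2, 3, 2 and 5 with all genes that had a count and 2, 5, 2 and 5 with DESeq2. It was 1 in the BA media with RLE scaling and 1 without composition normalization. The fit of 16 libraries gave 1 in the BT intima and 0 in the BT media, and the version 4 form gave 0 in the BT media. Leaving out a rabbit gave 0 to 4, 0 to 2, 0 to 0 and 0 to 5. Between layers (1 in the BA and 2 in the BT) the counts were 3 and 4 without composition normalization, 3 and 6 with all genes, 10 and 9 with DESeq2, 3 and 6 with the version 4 form, 2 in the BA with RLE scaling, and 0 and 0 without the rabbit block, in sham rabbits only and in ligated rabbits only; leaving out a rabbit gave 0 to 1 and 0 to 2. Between locations DESeq2 called 1 in the intima and 1 in the media, all genes with a count gave 1 in the media, and ligated rabbits only gave 3 in the media. Over all genes the calls ranged across alternatives from 0 to 123, 0 to 616, 0 to 508 and 13 to 641 for flow in the order above, from 0 to 667 and 0 to 1013 between layers, and from 0 to 36 and 0 to 187 between locations. Depth limits *PLA2G7* in the ligated intima, where 0 to 8 counts were found.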
